A study of Mus musculus with 8 samples.

Results

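The genes described here mainly encode the heat shock chaperones of the cytosol and the mitochondria, with the cofactors and transcription factors that work with them. They were taken from the deposited table by symbol: the Hspa, Hspb, Hspd, Hspe and Hsph families, cytosolic Hsp90, Trap1, the Dnaja, Dnajb and Dnajc families, the TRiC subunits (Tcp1 and Cct genes), Hsf1, Hsf2 and Bag1 to Bag6. Of 100 rows with such names, 9 pseudogene rows, 5 genes of the endoplasmic reticulum (Hspa5, Hspa13, Dnajb9, Dnajb11 and Dnajc3) and 1 repeated row were left out, which gave 85 of 38924 genes. The set is not free of genes of that compartment, since Dnajc10 stayed in by its symbol. The minimum for testing, a value of 1 or more in 2 or more libraries, was reached by 64 of the 85 and by 17698 genes in all. Transcripts were measured by RNA sequencing in 3 groups of C57BL/6 embryos, each library made from a pool of about 50 embryos. The inner cell mass (ICM, 3 libraries) came from blastocysts at day 3.5 after mating. The diapaused ICM (dICM, 3 libraries) came from blastocysts whose mothers were given tamoxifen together with Depo Provera (0.5 mg) at day 3.5, and which were collected 5 days after that. The epiblast (Epi, 2 libraries) came from post-implantation embryos at day 6.5. In blastocysts the trophectoderm was lysed with antibody and complement before RNA was taken, and all RNA was amplified before sequencing. Diapause, the hormone treatment and the longer time in the uterus came together in the dICM group and cannot be told apart.

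Chaperones bind proteins that are not yet folded and keep them from aggregating. HSP70 proteins bind short stretches of a client in cycles driven by ATP, DNAJ proteins bring clients to them and trigger ATP hydrolysis, and HSP110 and BAG proteins release the nucleotide so that the cycle can turn again. HSP90 takes over clients at a late stage of folding, TRiC is a ring of related subunits that folds actin and tubulin among others, and HSPD1 with its lid HSPE1 does similar work in mitochondria. The transcription factor HSF1 drives many of these genes after heat or other damage to proteins, and several of them are also made in large amounts by unstressed dividing cells, early embryos included.

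Values are adjusted TPM, the authors' measure of transcript abundance per length, and differences are log2(value + 1) fold changes ± SE from limma's moderated test over all tested genes, with Benjamini-Hochberg adjusted p-values and a threshold of 0.05. The scale understates changes of genes with low values. Group levels are given as mean ± SD over 3 libraries for ICM and for dICM and over 2 for Epi. The labels call the libraries biological replicates.

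Library sums ran from 720674 to 1179030, the read depth is unknown, and 14634 to 15130 genes per library were at 1 or more. The marker lists separated the labelled groups: the summed level of 9 naive pluripotency markers was 1511 to 1727 in ICM, 428 to 446 in dICM and 144 to 166 in Epi. Between ICM and dICM only Dppa3 of the 9 passed, with 1133 ± 200.2 in ICM and 49.9 ± 8.45 in dICM, and the median difference of the 9 was -0.29. Against ICM, 8 of the 9 were lower in Epi, and 6 of 6 tested primed markers were higher in Epi than in ICM. In dICM against ICM, 8 of 12 primitive endoderm markers were higher and 1 lower, with summed levels of 492 to 664 against 173 to 247. Of 7 tested early-response genes 6 were higher (summed level 219 to 254 against 7.44 to 25.2), Egr1 and Fos among them. Visceral endoderm markers summed to 562 to 578 in dICM, 305 and 417 in Epi and 25.6 to 36.3 in ICM, with 2 of 6 tested markers higher and 1 lower in dICM against ICM. Rhox5 alone averaged 558 in dICM and 26.3 in ICM, whereas the defining markers Afp, Ttr and Apob averaged 0.0691 or less in both and Hnf4a was lower in dICM. Of the blood and immune markers, Cd68 and Laptm5 were higher (summed level of the list 47.5 to 134 against 5.00 to 10.02), while Ptprc, Hbb-y, Hba-x and Lyz2 averaged 0.239 or less in each group. Trophectoderm markers, of which 1 of 8 tested was higher (Gata3, 8.41 ± 3.28 against 1.46 ± 0.949), summed to 54.2 and 55.6 in dICM replicates 1 and 2, to 185 in dICM replicate 3 and to 41.1 to 59.7 in ICM. In such bulk pools fewer cells of a type and less RNA per cell cannot be told apart, and the part of these differences in the results that follow was not tested.

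The chaperone transcripts together made up a smaller share of the dICM libraries than of the others. The 85 genes took 1.60, 1.63 and 1.38% of the library sum in ICM, 0.609, 0.651 and 0.849% in dICM and 1.55 and 1.36% in Epi. Every dICM library lay below every ICM and Epi library. On the unscaled values the same sums were 7416 ± 380 adjusted TPM in dICM, 13486 ± 2010 in ICM and 15735 ± 2634 in Epi. What filled the share differed between ICM and Epi. HSP70 genes gave 0.377 to 0.528% of the sum in ICM and 0.193 to 0.225% in Epi, while HSP90 genes gave 0.216 to 0.303% in ICM and 0.506 to 0.757% in Epi. In dICM the HSP70 genes stood at 0.167 to 0.223% and the HSP90 genes at 0.113 to 0.168%. With near-identical pseudogene rows counted in (described at the end), the HSP70 share was 0.515 to 0.632% in ICM, 0.400 and 0.438% in Epi and 0.209 to 0.310% in dICM, so the gap between ICM and Epi was smaller. The HSP90 share was then 0.376 to 0.477% in ICM, 0.710 and 1.01% in Epi and 0.183 to 0.283% in dICM.

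**Figure D1:**
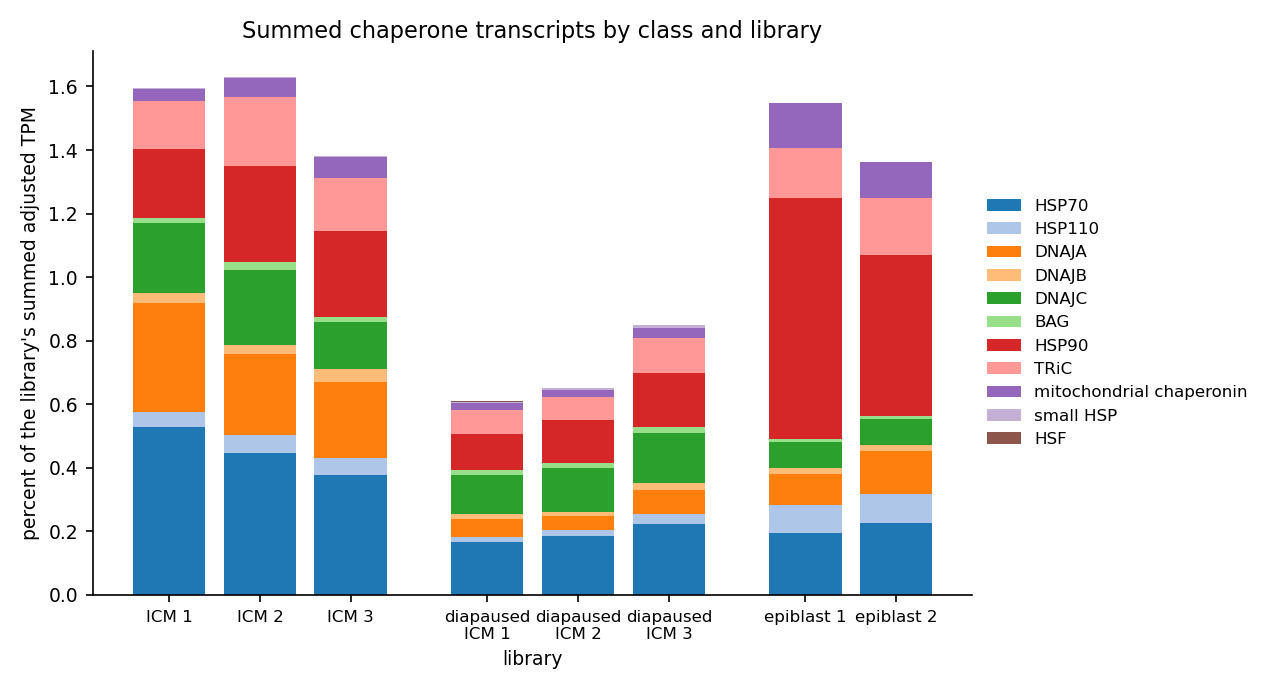
Summed chaperone transcripts in each library as percent of the library's summed adjusted TPM (vertical axis), stacked by chaperone class, for 3 ICM, 3 diapaused ICM and 2 epiblast libraries. The diapaused bars end between 0.609 and 0.849%, below the 1.36 to 1.63% of the other libraries, and the HSP90 block is widest in epiblast.

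In dICM against ICM, 11 of the 64 tested chaperone genes passed the test, 3 higher (4.69%) and 8 lower (12.5%). Together these are 17.2% against 13.3% of all genes tested (7.52% higher and 5.81% lower). The median difference of the 64 was -0.23, against 0.004 over all genes. Every dICM library lay above every ICM library for 10 of the 64 and below for 20 (31.25%), or 46.9% in either direction. Over all genes these shares were 16.4% above and 14.4% below (30.7% in either direction). Rescaling all libraries to the same total moved the share of higher genes among all called genes from 56.4 to 36.9% and the count of chaperone genes lower in dICM from 8 to 16. The direction went with the level of the gene. All 21 chaperone genes with a mean of at least 100 over the 8 libraries, a limit chosen after the values were seen, had a difference below 0, with a median of -0.73. Of all 1347 genes at that level 49.0% did, with a median of 0.02. Of these 21, 5 passed the test as lower (Dnaja1, Hsph1, Hspa8, Cct6a and Cct5) and 14 had every dICM library below every ICM library, that is 66.7% against 18.7% of all genes at that level. Of the 43 chaperone genes under that level, 21 were below 0 and the median was 0.09. The count was 23 of 23 with a limit of 50 and 12 of 12 with a limit of 200, and it became 19 of 21 without ICM replicate 1, when Dnajc7 and Hspa9 lay above 0. In Epi against ICM, 12 chaperone genes were higher (18.75%) and 9 lower (14.1%), 32.8% against 30.1% of all genes (16.7% higher and 13.3% lower). The share of higher genes among all called ones was 55.7%. It was 36.0% with all libraries at the same total and 44.7% when rescaled without the abundant genes. Every Epi library lay above every ICM library for 17 chaperone genes and below for 25 (39.1%), or 65.6% in either direction. Over all genes these shares were 33.9% above and 25% below (59% in either direction). In dICM against Epi, 10 were higher (15.6%) and 15 lower (23.4%), 39.1% against 34.5% of all genes (16% higher and 18.6% lower). The libraries did not overlap for 16 genes higher and 21 lower (57.8% in either direction), against 27.3% and 34.1% (61.4% in either direction). In each comparison the called share of both directions together was near that of all genes. In dICM against ICM the lower share was above that of all genes and the higher share below it. This split was not tested, and the members are described one by one.

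**Figure D2:**
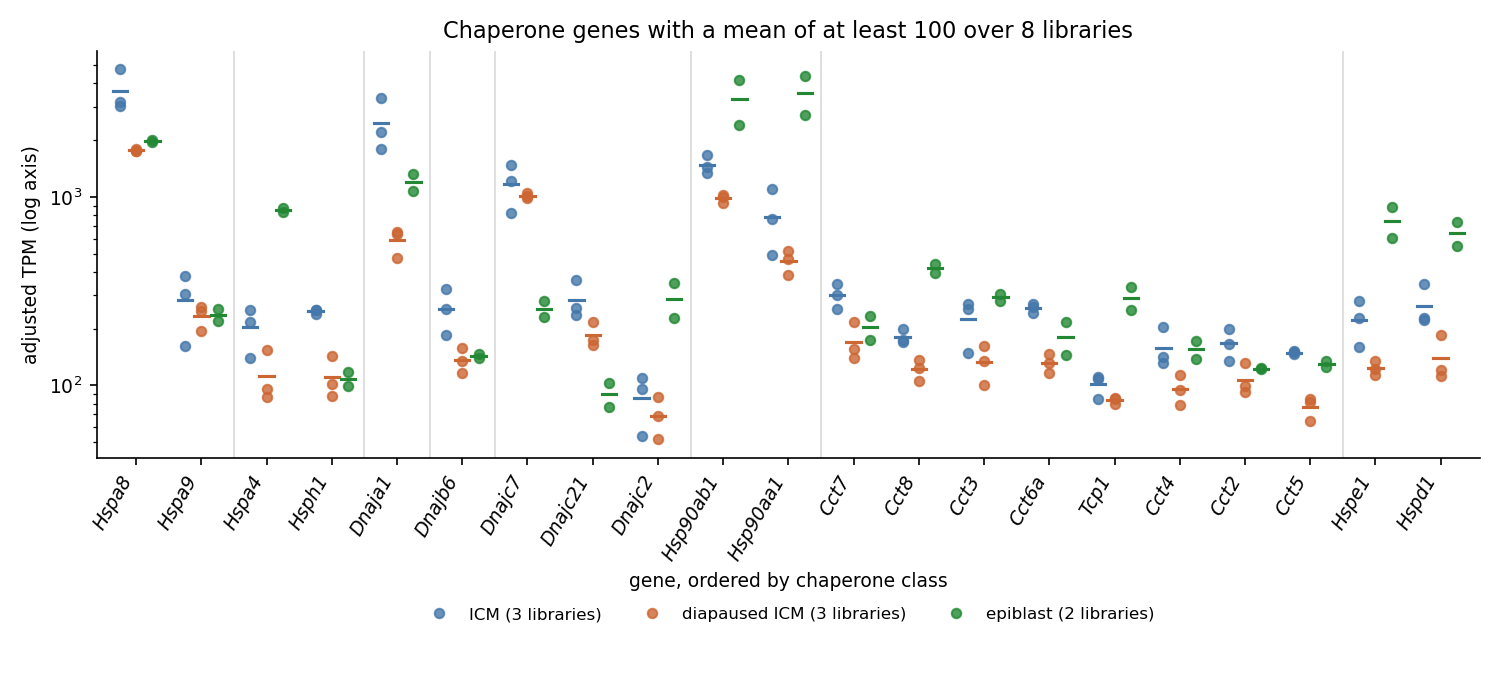
Adjusted TPM on a log axis of the 21 chaperone genes with a mean of at least 100, ordered by class. Points are libraries (ICM, diapaused ICM, epiblast), short lines are arithmetic group means, and vertical grey lines part the classes. Group means of diapaused ICM lie below those of ICM for each gene, and Hspa4, Hsp90aa1, Hspe1 and Hspd1 stand far higher in epiblast than in ICM.

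Among HSP70 genes the constitutive Hspa8, which serves folding in unstressed cells, was by far the most abundant. It stood at 4761, 3033 and 3203 in the ICM libraries, at 1749, 1794 and 1762 in dICM and at 1946 and 2006 in Epi. The 3 dICM values are close together and all lie below the lowest ICM value. Hspa8 fell in dICM against ICM by 1.02 ± 0.21 (adjusted p = 0.014) and in Epi against ICM by 0.86 ± 0.24 (adjusted p = 0.025), and gave -0.16 ± 0.24 in dICM against Epi (adjusted p = 0.62). The mitochondrial Hspa9, which pulls proteins through the inner membrane, overlapped in all 3 comparisons, with 283 ± 111 in ICM, 234 ± 35.6 in dICM and 237 ± 24.6 in Epi. The ribosome-associated Hspa14 stood at 37.0 ± 9.83, 27.7 ± 8.41 and 28.2 ± 0.0713 and passed no test either. Hspa2, abundant in the testis, was at 1.61 to 2.01 in ICM and 0.445 to 1.05 in dICM (-0.71 ± 0.26, adjusted p = 0.12). The call of Hspa8 in dICM against ICM was lost without dICM replicate 1 (adjusted p = 0.0502) and without the filter on low values (0.21). That in Epi against ICM was lost without ICM replicate 1 (0.068), Epi replicate 1 (0.12) or Epi replicate 2 (0.091).

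The heat-inducible HSP70 genes Hspa1a and Hspa1b, the classical targets of HSF1, were barely detected. Hspa1a stood at 0.173, 0.0752 and 0.230 in ICM, at 0.711, 1.90 and 2.05 in dICM and at 1.09 and 0.0163 in Epi. Hspa1b stood at 0.199, 0.0734 and 0.239 in ICM, at 0.475, 1.98 and 1.31 in dICM and at 0.566 and 0.213 in Epi. For both, every dICM library exceeded every ICM library, but neither passed the test (1.10 ± 0.35 with adjusted p = 0.077, and 0.89 ± 0.32 with adjusted p = 0.11). They are near-identical genes, so how reads were split between them is uncertain. Hspa1a passed when only the ICM and dICM libraries were fitted (adjusted p = 0.049), and Hspa1b without dICM replicate 1 (adjusted p = 0.047), its lowest dICM value. Hspa1b reached 1 only in dICM replicates 2 and 3, and Hspa1a only in those and Epi replicate 1. Both were thus tested only because of their dICM values, which favoured a difference above 0. The early-response genes named above rose in the same dICM libraries, and their part in these values was not tested.

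The HSP110 genes, which release nucleotide from HSP70, differed from each other in epiblast. Hsph1 stood at 238, 251 and 252 in ICM, at 101, 87.6 and 142 in dICM and at 118 and 98.9 in Epi. It fell in both against ICM, by 1.18 ± 0.23 in dICM (adjusted p = 0.011) and by 1.19 ± 0.26 in Epi (adjusted p = 0.0099). Hspa4 stood at 218, 139.8 and 251 in ICM, at 94.99, 86.9 and 154 in dICM and at 877 and 827 in Epi, far above all other libraries. It was higher in Epi by 2.11 ± 0.33 against ICM (adjusted p = 0.0022) and lower in dICM against Epi by -2.96 ± 0.33 (adjusted p = 0.00035), while dICM against ICM gave -0.86 ± 0.30 (adjusted p = 0.098). The ratio of Hspa4 to Hsph1 was 0.556 to 0.993 in ICM, 0.936 to 1.08 in dICM and 7.44 and 8.37 in Epi. Hspa4l, the third gene of this class, went with Hspa4: 0.954 to 5.92 in ICM, 1.02 to 2.04 in dICM, and 9.57 and 26.0 in Epi (2.39 ± 0.56 against ICM, adjusted p = 0.013). The Epi calls of Hsph1 and Hspa4l against ICM were lost when an epiblast library was left out: Hsph1 without Epi replicate 1 (adjusted p = 0.051) or 2 (0.078), and Hspa4l without Epi replicate 2 (0.11, and 0.067 in dICM against Epi). Without ICM replicate 2 (0.040) or dICM replicate 3 (0.049), Hspa4 passed as lower in dICM.

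Dnaja1, a main cytosolic partner of Hspa8, had the largest fall on the log2 scale among the chaperone genes called in dICM against ICM. It stood at 3348, 1802 and 2211 in ICM, at 639, 476 and 652 in dICM and at 1074 and 1326 in Epi. The 3 groups did not overlap. Dnaja1 fell in dICM against ICM by 2.02 ± 0.27 (adjusted p = 0.0017), in Epi against ICM by 0.99 ± 0.30 (adjusted p = 0.036), and was lower in dICM than in Epi (-1.03 ± 0.30, adjusted p = 0.027). Its level relative to Hspa8 was 0.594 to 0.703 in ICM, 0.265 to 0.370 in dICM and 0.552 and 0.661 in Epi, so within the dICM libraries the partner was lower by more than Hspa8 was. With near-identical pseudogene rows counted in, the ratio was 1.19 to 1.56 in ICM, 0.600 to 0.823 in dICM and 0.615 and 0.962 in Epi, so that dICM and Epi overlapped. It made up 53.3 ± 4.87% of all Dnaj transcripts in ICM, 25.9 ± 3.44% in dICM and 51.4 ± 5.73% in Epi, or 68.5 to 75.8%, 41.3 to 49.7% and 64.9 and 72.5% with those rows. The call in dICM against ICM held in each alternative run. In Epi against ICM it was lost without ICM replicate 1 (adjusted p = 0.094), ICM replicate 3 (0.065), Epi replicate 1 (0.19) or Epi replicate 2 (0.085), and in dICM against Epi without dICM replicate 2 (0.074), Epi replicate 1 (0.076) or Epi replicate 2 (0.15).

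The other DNAJA and DNAJB genes were lower in level. Dnajb6, which holds back aggregation of polyglutamine proteins, stood at 255, 185 and 324 in ICM, at 135, 116 and 157 in dICM and at 147 and 139.5 in Epi. All dICM and Epi values lie below the lowest ICM value, yet the test was missed in dICM (-0.87 ± 0.25, adjusted p = 0.053) and in Epi (-0.79 ± 0.28, adjusted p = 0.063), and without ICM replicate 2 both passed (0.022 and 0.024). With near-identical pseudogene rows counted in, Epi (493 and 406) overlapped ICM (427 to 815). The differences from ICM were then -0.80 in dICM (adjusted p = 0.087) and -0.41 in Epi (adjusted p = 0.33). Dnajb1, the heat-inducible partner of HSP70, overlapped in all comparisons, at 24.7 ± 7.65 in ICM, 29.6 ± 10.9 in dICM and 34.7 ± 14.2 in Epi. Dnaja2 and the mitochondrial Dnaja3 passed no test either, at 30.8 ± 6.55 and 12.2 ± 4.96 in ICM against 24.1 ± 3.52 and 6.73 ± 0.881 in dICM. Dnajb4, present in heart and muscle, went the other way at a low level. It stood at 1.76, 0.823 and 0.968 in ICM, at 7.42, 5.07 and 2.67 in dICM and at 1.65 and 0.552 in Epi, a rise of 1.42 ± 0.35 over ICM (adjusted p = 0.030) and of 1.499 ± 0.39 over Epi (adjusted p = 0.018). Its call over ICM was lost without ICM replicate 2 (0.077), ICM replicate 3 (0.086), dICM replicate 1 (0.086) or dICM replicate 2 (0.080), and that over Epi without Epi replicate 2 (0.14).

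DNAJC proteins share the J domain and otherwise differ widely, and so did their transcripts. Dnajc7, also named TPR2, binds both HSP70 and HSP90. It stood at 1468, 1216 and 824 in ICM, at 983, 1044 and 1010 in dICM and at 231 and 279.5 in Epi, where it fell by 2.16 ± 0.27 against ICM (adjusted p = 0.0007). It overlapped between ICM and dICM (-0.17 ± 0.24, adjusted p = 0.72), so that it took 44.7 ± 2.93% of all Dnaj transcripts in dICM, against 26.0 ± 5.98% in ICM and 10.9 ± 1.06% in Epi. With near-identical pseudogene rows of the other Dnaj genes counted in, its share was 26.5 to 32.4% in dICM, 9.93 to 17.2% in ICM and 5.17 and 5.59% in Epi. Dnajc21, a cofactor of ribosome assembly, stood at 361, 236 and 256 in ICM, 216, 175 and 164 in dICM and 102 and 76.8 in Epi, with no overlap between the groups. It fell in Epi by 1.65 ± 0.27 against ICM (adjusted p = 0.0029), and gave -0.60 ± 0.25 in dICM against ICM (adjusted p = 0.15). Dnajc2, which works at the ribosome with HSPA14, was highest in Epi: 109, 53.7 and 95.02 in ICM, 51.7, 86.3 and 68.3 in dICM and 347 and 227 in Epi, a rise of 1.76 ± 0.37 over ICM (adjusted p = 0.0081). Dnajc9, a chaperone of histones H3 and H4, likewise rose in Epi, from 11.5 ± 4.12 in ICM and 13.1 ± 4.16 in dICM to 69.1 ± 13.3 (2.53 ± 0.35 over ICM, adjusted p = 0.0012). Without Epi replicate 1 the rise of Dnajc2 over ICM no longer passed (0.085).

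The remaining DNAJC genes were at 28.5 or less in every library, apart from the splicing-related Dnajc8, which passed no test at 65.1 ± 6.57 in ICM, 57.1 ± 3.96 in dICM and 81.9 ± 7.97 in Epi. In dICM against ICM, Dnajc17 (-1.30 ± 0.30, adjusted p = 0.023) and the disulfide reductase Dnajc10 of the endoplasmic reticulum (-0.97 ± 0.22, adjusted p = 0.019) were lower, and Dnajc18 was higher, from 1.34 ± 0.224 to 3.33 ± 0.275 (0.89 ± 0.19, adjusted p = 0.018). In Epi against ICM, Dnajc25 (-1.46 ± 0.29, adjusted p = 0.0063), the endosomal Dnajc13 (-0.72 ± 0.23, adjusted p = 0.041) and Dnajc5g (-2.05 ± 0.58, adjusted p = 0.029) were lower. Dnajc5g, known from the testis, had 1.65, 8.02 and 1.99 in ICM and under 0.01 in both Epi libraries. Outside ICM it reached 1 only in dICM replicate 3. It was thus tested only through its ICM values, which favoured a lower value in Epi. Over Epi, dICM was higher for Dnajc7 (1.99 ± 0.27), Dnajc21 (1.04 ± 0.27), Dnajc1, Dnajc11, Dnajc13 and Dnajc14 (0.84 to 1.00) and lower for Dnajc9, Dnajc2 and Dnajc10 (-2.34, -2.05 and -0.73). Of the 22 tested DNAJC genes, 3 passed in dICM against ICM, 7 in Epi against ICM and 9 in dICM against Epi. These are 13.6, 31.8 and 40.9%, against 13.3, 30.1 and 34.5% of all genes. The 7 in Epi against ICM include Dnajc5g. Many of the smaller calls rest on single libraries. In dICM against ICM, Dnajc17 was lost without ICM replicate 1 (adjusted p = 0.056), ICM replicate 3 (0.053) or dICM replicate 2 (0.071). Dnajc10 was lost there without ICM replicate 1 (0.075), ICM replicate 3 (0.058) or dICM replicate 2 (0.061), and Dnajc18 without ICM replicate 1 (0.062) or dICM replicate 1 (0.055). In dICM against Epi, leaving out Epi replicate 1 or 2 ended the calls of Dnajc1 (0.12 and 0.13), Dnajc11 (0.14 and 0.096), Dnajc14 (0.093 and 0.18) and Dnajc21 (0.052 and 0.14). Of these, Dnajc1 (0.061), Dnajc11 (0.063) and Dnajc14 (0.076) were also lost without dICM replicate 2, Dnajc1 (0.054) and Dnajc14 (0.064) without dICM replicate 3, Dnajc21 (0.053) without dICM replicate 1 and Dnajc14 (0.051) without ICM replicate 1. Dnajc10 was lost against Epi without any library but ICM replicate 2 (0.057 to 0.24), and Dnajc13 without Epi replicate 1 (0.10). In Epi against ICM, Dnajc25 was lost without Epi replicate 1 (0.069), Dnajc5g without ICM replicate 2 (0.056), Epi replicate 1 (0.13) or Epi replicate 2 (0.12), and Dnajc13 without any library but ICM replicate 2 and dICM replicate 3 (0.050 to 0.24).

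**Figure D3:**
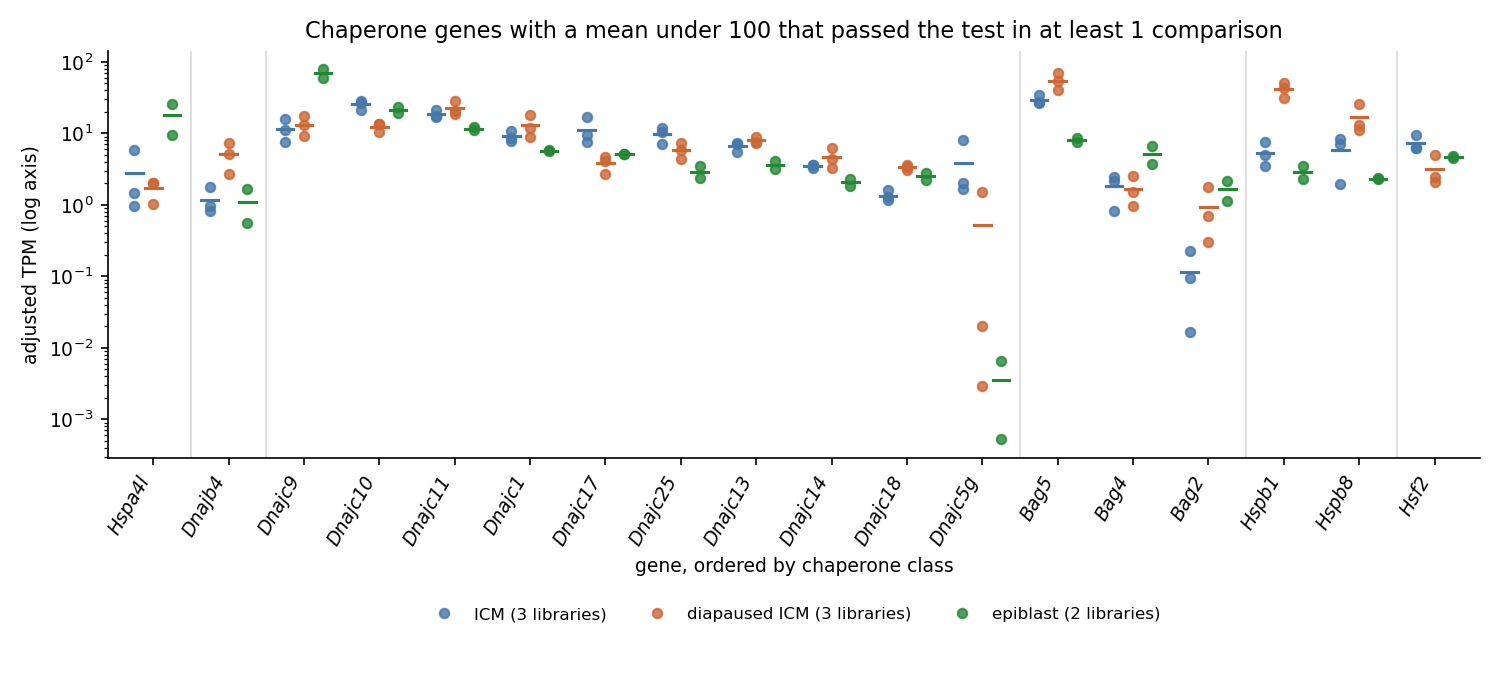
Adjusted TPM on a log axis of the 18 chaperone genes with a mean under 100 that passed the test in at least 1 comparison, ordered by class. Points are libraries and short lines are arithmetic group means. Hspb1, Hspb8 and Dnajb4 are highest in diapaused ICM, Dnajc9 and Hspa4l in epiblast, and Dnajc5g lies under 0.01 in both epiblast libraries.

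Both cytosolic HSP90 genes were highest in epiblast. Hsp90aa1, the inducible form, stood at 765, 489 and 1100 in ICM, at 384, 469 and 516 in dICM and at 4385 and 2735 in Epi. Hsp90ab1, the constitutive form, stood at 1334, 1676 and 1437 in ICM, at 923, 1003 and 1022 in dICM and at 4199 and 2406 in Epi. For both genes the 2 Epi libraries exceeded all others. Hsp90aa1 rose over ICM by 2.22 ± 0.36 (adjusted p = 0.0025) and Hsp90ab1 by 1.11 ± 0.26 (adjusted p = 0.014). In dICM they were lower than in Epi (-2.93 ± 0.36 with adjusted p = 0.00053, and -1.69 ± 0.26 with adjusted p = 0.0018) and passed no test against ICM (-0.71 ± 0.32 with adjusted p = 0.19, and -0.59 ± 0.24 with adjusted p = 0.15), although no dICM value of Hsp90ab1 reached the ICM range. Hsp90aa1 made up 22.6 to 43.4% of the pair in ICM, 29.4 to 33.5% in dICM and 51.1 and 53.2% in Epi. The pair together was 0.441 to 0.792 times the level of Hspa8 in ICM, 0.747 to 0.873 times in dICM and 4.41 and 2.56 times in Epi. With near-identical pseudogene rows counted in, these ratios were 0.637 to 0.996 in ICM, 0.953 to 1.04 in dICM and 2.43 and 1.92 in Epi. The share of Hsp90aa1 then overlapped between ICM (42.3 to 59.2%) and Epi (58.3 and 56.7%). Trap1, the mitochondrial HSP90, passed no test, at 19.6 ± 0.733, 18.01 ± 6.44 and 12.5 ± 3.51. The rise of Hsp90ab1 over ICM was lost without Epi replicate 1 (adjusted p = 0.13), which held the higher value, under quantile normalization (0.062) and with all libraries at the same total (0.071).

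The 8 tested TRiC subunits (Tcp1, Cct2 to Cct5, Cct6a, Cct7 and Cct8), which in the protein complex occur in equal numbers, did not move as a block in epiblast. Their mean was 187, 194 and 195 in ICM, 115, 102 and 128 in dICM and 222 and 226 in Epi. All 8 had a difference below 0 in dICM against ICM (-0.97 to -0.27, median -0.72). In 6 of them every dICM library lay below every ICM library, that is 75% against 14.4% of all genes. Cct6a (257 ± 14.2 to 132 ± 15.1, -0.97 ± 0.22, adjusted p = 0.023) and Cct5 (149 ± 2.83 to 77.1 ± 10.5, -0.95 ± 0.20, adjusted p = 0.015) passed the test. These are 25% of the 8, against 13.3% of all genes. In Epi against ICM only Cct8 and Tcp1 passed among the 8, both higher (25% against 30.1% of all genes). Cct8 stood at 169, 174 and 198 in ICM, at 106, 123 and 136 in dICM and at 395 and 440 in Epi (1.205 ± 0.22 over ICM, adjusted p = 0.0048). Tcp1 stood at 84.9, 109 and 111 in ICM, at 84.7, 86.1 and 79.3 in dICM and at 332 and 250 in Epi (1.51 ± 0.24 over ICM, adjusted p = 0.0023). The other 6 gave values from -0.56 (Cct7) to 0.43 (Cct3). Relative to the mean of the 8 subunits, Tcp1 went from 0.527 ± 0.0631 in ICM to 1.30 ± 0.275 in Epi and Cct8 from 0.940 ± 0.0672 to 1.86 ± 0.119, while Cct7 went from 1.56 ± 0.267 to 0.909 ± 0.177 and Cct2 from 0.871 ± 0.191 to 0.547 ± 0.00061. The coefficient of variation over the 8 was 31.9 to 44.3% in ICM, 21.3 to 35.5% in dICM and 46.5 and 47.3% in Epi. In dICM against Epi, Tcp1 (-1.78 ± 0.24), Cct8 (-1.78 ± 0.22), Cct3 (-1.17 ± 0.32) and Cct5 (-0.76 ± 0.22) were lower, 50% of the 8 against 34.5% of all genes called. The fall of Cct6a in dICM was lost without ICM replicate 1 (adjusted p = 0.078), ICM replicate 3 (0.053), dICM replicate 2 (0.073) or dICM replicate 3 (0.053), and that of Cct5 without ICM replicate 1 (0.053) or dICM replicate 1 (0.051). In dICM against Epi, Cct3 was lost without dICM replicate 2 (0.061), Epi replicate 1 (0.12) or Epi replicate 2 (0.088), and Cct5 without dICM replicate 1 (0.078), Epi replicate 1 (0.15) or Epi replicate 2 (0.11), while Cct4 passed as lower without ICM replicate 2 (0.049). Without dICM replicate 3, Cct7 passed as lower in dICM against ICM (0.041).

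**Figure D4:**
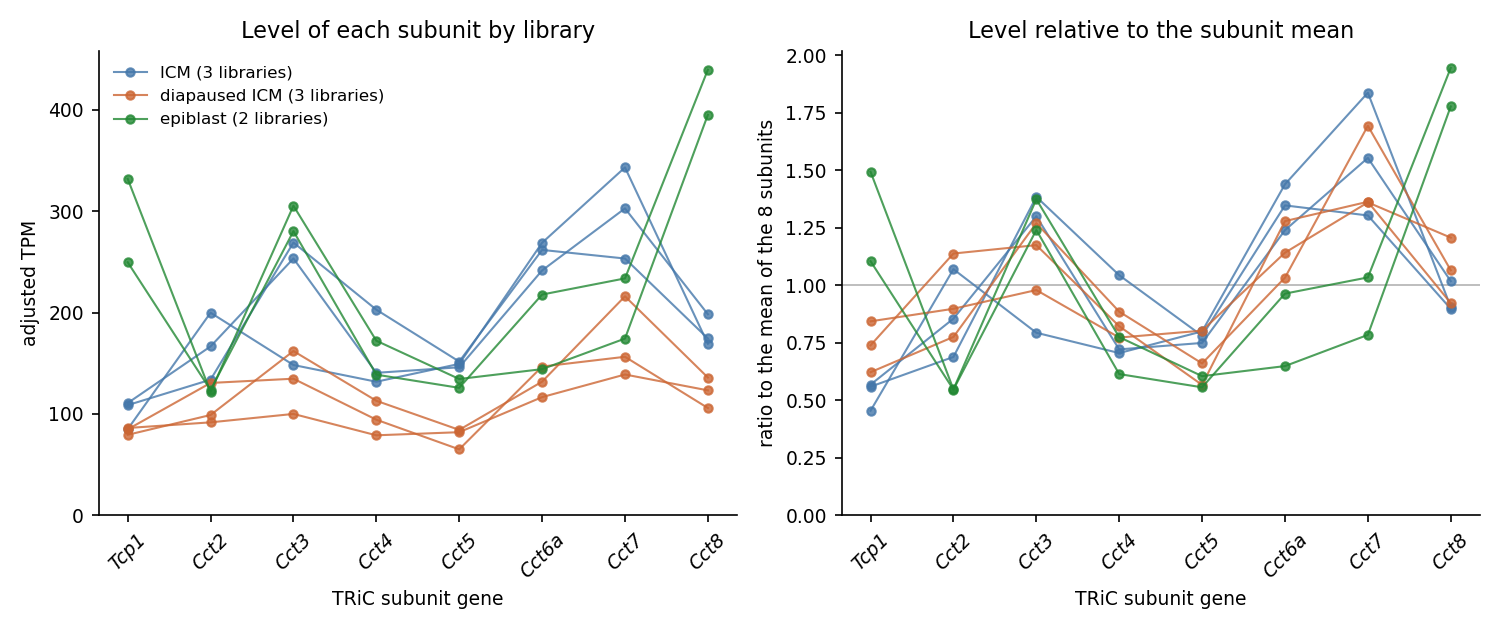
Left, adjusted TPM of the 8 tested TRiC subunit genes in each library. Right, the same values divided by the mean of the 8 subunits in that library, with a grey line at 1. Lines join the subunits of a library (ICM, diapaused ICM, epiblast) and carry no order. Tcp1 and Cct8 stand higher in both epiblast libraries than in all others in both panels.

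The mitochondrial chaperonin Hspd1 and its lid Hspe1 moved together. Hspd1 stood at 227, 221 and 343 in ICM, at 111, 120 and 185 in dICM and at 734 and 551 in Epi. Hspe1 stood at 161, 227 and 280 in ICM, at 121, 135 and 114 in dICM and at 887 and 607 in Epi. The 3 groups were separate for both genes, dICM lowest and Epi highest. Hspe1 was higher in Epi by 1.75 ± 0.29 (adjusted p = 0.0030) and Hspd1 by 1.30 ± 0.31 (adjusted p = 0.015) over ICM, and in dICM they were lower than in Epi by -2.57 ± 0.29 and -2.22 ± 0.31 (adjusted p = 0.00038 and 0.0011). Against ICM the dICM values missed the threshold (Hspd1 -0.93 ± 0.28, adjusted p = 0.063, and Hspe1 -0.81 ± 0.26, adjusted p = 0.077). The ratio of Hspe1 to Hspd1 was 0.708 to 1.03 in ICM, 0.615 to 1.12 in dICM and 1.21 and 1.10 in Epi. With near-identical pseudogene rows counted in it was 1.198 to 1.401 in ICM, 0.973 to 1.83 in dICM and 1.78 and 1.64 in Epi. Without Epi replicate 1 the rise of Hspd1 over ICM was lost (0.12), as with all libraries at the same total (0.061), and without dICM replicate 3, the highest of the dICM values, Hspd1 passed as lower in dICM (0.038).

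Small heat shock proteins hold unfolded clients without using ATP. All 4 tested genes of this class, which was taken by the symbol Hspb, had a difference above 0 in dICM against ICM. Of these, 1 passed the test (25% against 13.3% of all genes). Hspb11 reached 1 only in dICM replicates 1 and 2, and Hspb6 only in dICM replicates 2 and 3 and ICM replicate 3. Neither gene met the minimum for testing without its dICM values. The minimum thus favoured a difference above 0 for both, and the 4 signs are no test of the class. Hspb1, also called Hsp25, stood at 3.49, 4.94 and 7.67 in ICM, at 49.9, 30.9 and 43.0 in dICM and at 3.52 and 2.28 in Epi. The lowest dICM value, 30.9, lies far above the highest of the other libraries, 7.67. It rose by 2.76 ± 0.30 over ICM (adjusted p = 0.00066) and by 3.43 ± 0.34 over Epi (adjusted p = 0.00019), and both calls held in each alternative run. Hspb8, a partner of BAG3 in selective autophagy, stood at 8.44, 1.93 and 7.10 in ICM, at 11.03, 12.9 and 26.0 in dICM and at 2.26 and 2.39 in Epi. It was higher in dICM than in Epi (2.31 ± 0.51, adjusted p = 0.0094) and missed the threshold over ICM (1.44 ± 0.46, adjusted p = 0.075). Hspb6 and Hspb11 were at 2.74 or less in every library and passed no test. Trophectoderm, primitive endoderm and early-response markers were also higher in some or all dICM libraries, as given above. Their part in the values of Hspb1 was not tested. Without Epi replicate 1 the call of Hspb8 over Epi was lost (0.060), and without ICM replicate 2 Hspb8 passed as lower in Epi than in ICM (0.032). Over Epi, Hspb11 passed without dICM replicate 3 (0.019) and Hspb6 without dICM replicate 1 (0.049). Each of these runs left out the lowest dICM value of the gene. Both genes met the minimum for testing only through their dICM values, which favoured a difference above 0 over Epi.

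BAG proteins bind the ATPase domain of HSP70 and link it to other pathways. Bag5 stood at 27.0, 34.1 and 26.3 in ICM, at 70.5, 40.5 and 53.0 in dICM and at 8.55 and 7.51 in Epi. The 3 groups did not overlap, with dICM highest. Bag5 fell in Epi by 1.73 ± 0.28 against ICM (adjusted p = 0.0024), was higher in dICM than in Epi by 2.59 ± 0.28 (adjusted p = 0.00029), and missed the threshold in dICM against ICM (0.86 ± 0.25, adjusted p = 0.053). Bag4, which restrains death receptors, and Bag2, which inhibits the ubiquitin ligase CHIP, were higher in Epi than in ICM at low levels (5.20 ± 2.13 against 1.82 ± 0.861, and 1.65 ± 0.709 against 0.113 ± 0.106, adjusted p = 0.048 and 0.037). Bag2 reached 1 only in dICM replicate 3 and the Epi libraries, and in no ICM library. It was thus tested only through its Epi values, which favoured a rise over ICM. Bag1, Bag3 and Bag6 passed no test, with ICM levels of 80.8 ± 18.1, 3.21 ± 0.317 and 47.5 ± 13.3. Bag4 also passed in dICM against Epi (-1.22 ± 0.38, adjusted p = 0.035). The Bag2 call was lost without each of the ICM libraries (adjusted p = 0.088, 0.056 and 0.079) or Epi libraries (0.10 and 0.25). The Bag4 call over ICM was lost without each ICM library (0.071, 0.11 and 0.054), dICM replicate 2 (0.062) or each Epi library (0.30 and 0.067), and that over dICM without dICM replicate 1 (0.087), dICM replicate 2 (0.070) or each Epi library (0.24 and 0.051). Without dICM replicate 2 (0.038), Bag5 passed as higher in dICM than in ICM, and without Epi replicate 1 Bag6 passed as lower in Epi than in ICM (0.035) and in dICM (0.035).

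The heat shock factors themselves were at low levels. Hsf1 stood at 4.29, 6.66 and 11.8 in ICM, at 5.92, 2.66 and 5.73 in dICM and at 3.84 and 2.95 in Epi, and passed no test (-0.53 ± 0.36 in dICM against ICM, adjusted p = 0.40). Hsf2, which acts in development and pairs with HSF1, stood at 6.26, 9.41 and 6.24 in ICM, at 2.06, 2.42 and 4.92 in dICM and at 4.80 and 4.45 in Epi. It fell in dICM against ICM by 1.05 ± 0.29 (adjusted p = 0.042). Leaving out any single library but dICM replicate 3 ended that call, with adjusted p from 0.063 to 0.12. Transcript level says nothing of the activity of these factors, which are controlled as proteins.

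HSF proteins bind heat shock elements, inverted repeats of the unit GAA. RefSeq promoters (GRCm38.p6) were available for 69 of the 85 genes, 250 bases before the start site being searched on both strands. A pair of units (GAANNTTC or TTCNNGAA) was found for 17 of the 69 genes (24.6%), against 14.5% of all 27025 genes in the table. Any run of 3 units (GAANNTTCNNGAA or TTCNNGAANNTTC, each of which also holds a pair) was found for 3 genes (Dnajb6, Hspd1 and Hspe1), or 4.35%, against 0.514%. Hspd1 and Hspe1 hold the same element, read on opposite strands, and it was counted for both genes in these shares. Of the genes that passed in dICM against ICM, Hspb1 and Dnajb4, which were higher, and Dnaja1, Hsph1, Cct5 and Dnajc10, which were lower, held a pair. The stretches below are those of the pair Hspd1 and Hspe1, which share a promoter between starts 215 bases apart, of Hspb1 and Hsph1, which moved in opposite directions in dICM, of the barely detected Hspa1a, and of Dnajb6, whose element lies in an annotated exon. They run 5′ to 3′ on the strand of the gene, with the matched element in capitals.
Hspe1, shared with Hspd1, chr1:55088029-55088106, plus strand: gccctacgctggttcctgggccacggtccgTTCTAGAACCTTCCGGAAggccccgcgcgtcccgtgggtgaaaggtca
Hspb1, chr5:135887772-135887859, plus strand: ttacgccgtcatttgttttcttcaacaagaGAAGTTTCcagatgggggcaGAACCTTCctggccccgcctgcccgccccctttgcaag
Hsph1, chr5:149636337-149636409, minus strand: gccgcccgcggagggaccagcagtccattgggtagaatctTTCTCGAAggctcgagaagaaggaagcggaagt
Hspa1a, chr17:34972213-34972300, minus strand: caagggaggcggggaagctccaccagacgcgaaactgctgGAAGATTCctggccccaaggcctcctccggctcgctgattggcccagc
Dnajb6, chr5:29735844-29735872, plus strand: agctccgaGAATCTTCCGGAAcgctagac
The element of Hspe1 has 4 units and lies 89 to 72 bases before its start. Hspb1 holds 2 separate pairs of units, at 117 to 110 and 97 to 90 bases before its start. The Hspa1b promoter matched that of Hspa1a at 98.8% of 250 positions, the printed stretch included, and both genes count among the 17 with a pair. A match is a description of letters, not of a bound site.

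Genes that work with these chaperones, from 3 lists written with earlier results known, gave mixed counts. Of 27 tested co-chaperones of HSP70 and HSP90, 4 were lower and 0 higher in dICM against ICM, with a median of -0.61 against 0.004 for all genes. The called share, 14.8%, was near the 13.3% of all genes in both directions together. All 4 calls were lower, against 5.81% lower among all genes. Stip1, which hands clients from HSP70 to HSP90, fell from 258 ± 39.9 to 83.8 ± 3.99 (-1.60 ± 0.20, adjusted p = 0.0014). Fkbp4, an immunophilin of HSP90, fell from 219 ± 26.1 to 81.9 ± 16.2 (-1.42 ± 0.22, adjusted p = 0.0043). The third by adjusted p was Nudc (-0.87 ± 0.22, adjusted p = 0.031). Against ICM, Epi had 3 higher and 4 lower, led by Ahsa1, an activator of the HSP90 ATPase, which fell by 1.39 ± 0.22 (adjusted p = 0.0022), and Stip1, which fell by 1.18 ± 0.23 (adjusted p = 0.0057), while both cytosolic HSP90 genes rose. The called share was 25.9% against 30.1% of all genes. In dICM against Epi 1 was higher and 9 lower, 37.0% against 34.5%. Of 13 tested prefoldin and TRiC helper genes, 0 passed in dICM against ICM, with 1 at an unadjusted p under 0.05. Over ICM, Epi had 4 higher and 2 lower (46.2% against 30.1% of all genes), led by the prefoldin subunit Vbp1 (2.42 ± 0.33, adjusted p = 0.0011) and the tubulin cofactor Tbca (3.12 ± 0.51, adjusted p = 0.0026). Of 14 tested genes of mitochondrial import, folding and proteolysis, 0 passed in dICM against ICM (2 at an unadjusted p under 0.05) and 2 were higher and 3 lower in Epi against ICM (35.7% against 30.1%). There Timm44, which anchors mitochondrial HSP70 at the import channel, fell by 2.45 ± 0.33 (adjusted p = 0.0010) and the import receptor Tomm70a rose by 1.81 ± 0.31 (adjusted p = 0.0034). Of 19 ER chaperone genes, kept for comparison, 1 was higher (Dnajc3, 0.94 ± 0.24, adjusted p = 0.034) and 0 lower in dICM against ICM, with a median of -0.02. The called share was 5.26% against 13.3% of all genes.

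Many chaperone genes have near-identical processed pseudogenes, to which reads may also have been assigned. A search found 30 such rows with at least 90% identity over at least 50% of the pseudogene, and 5 further rows were taken by name (Dnaja1-ps, Hspe1-ps3, Hspe1-ps4, Hspe1-ps6 and Tcp1-ps1), which made 35 rows for 16 of the genes. Those rows held 62.7 to 65.3% of the summed level for Dnaja1, 56.8 to 70.2% for Dnajb6, 66.1 to 80.3% for Hspe1, 53.1 to 63.5% for Hspd1, 41.2 to 56.2% for Hspb1 and 33.1 to 66.1% for Hsp90aa1. For Hspa8 they held 17.5 to 30.9% in ICM and dICM but 58.7 and 46.7% in Epi. With each gene summed with its copies, an alternative added after the data were seen, Hspa8 was 4772 ± 890 in ICM, 2336 ± 185 in dICM and 4237 ± 669 in Epi. Its fall in Epi against ICM was lost (-0.16, adjusted p = 0.61), and dICM became lower than Epi (-0.85, adjusted p = 0.019). Hspd1 then passed as lower in dICM against ICM (-0.90, adjusted p = 0.047). Dnajc19, a subunit of the mitochondrial import motor, passed as higher in Epi than in ICM (1.01, adjusted p = 0.046) and as lower in dICM than in Epi (-1.36, adjusted p = 0.013). The rise of Hsp90aa1 in Epi over ICM became 1.41 (adjusted p = 0.012). Dnajc5b, under the minimum for testing by itself, was not tested with its copy. All other calls of the 15 genes tested with copies stayed as they were, Dnaja1 giving -1.96 and Hspb1 2.77 in dICM against ICM. With copies the 85 genes made up 2.32 to 2.58% of the ICM libraries, 0.895 to 1.27% of the dICM libraries and 2.23 and 2.48% of the Epi libraries. A read may be counted in more than 1 row of such sums, and how reads were shared was not tested.

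**Figure D5:**
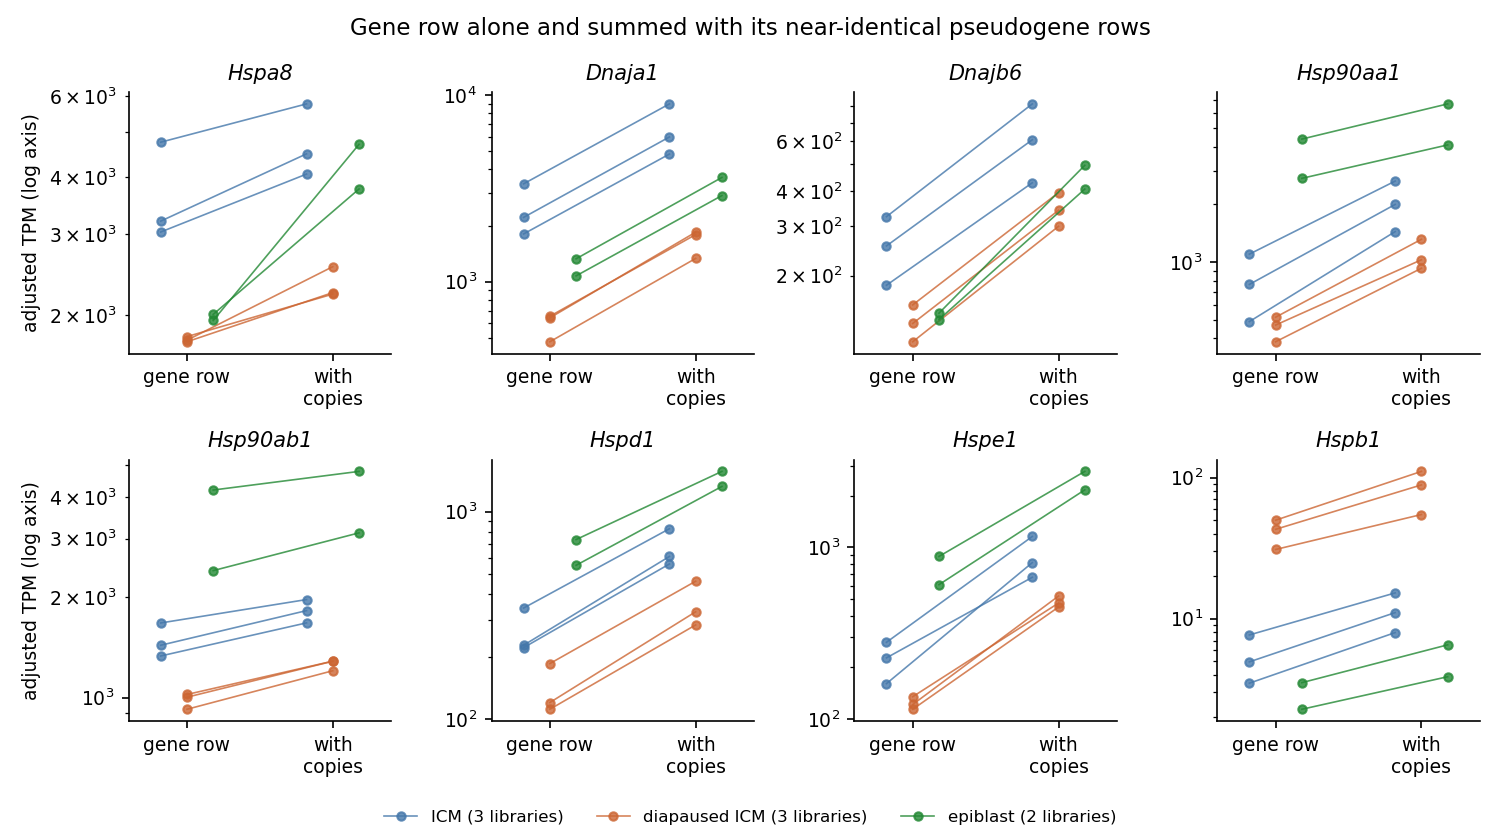
Adjusted TPM on log axes for 8 chaperone genes, each with its own row alone (left points) and summed with its near-identical pseudogene rows (right points). Lines join the values of a library (ICM, diapaused ICM, epiblast). For Hspa8 the epiblast values rise from near those of diapaused ICM to 3764 and 4710, within reach of ICM, while for Dnaja1 and Hspb1 the order of the groups stays.

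The 21 genes under the minimum for testing were Hspa1l, Hspa12a, Hspa12b, Cct6b, Cct8l1, Dnaja4, Dnajb2, Dnajb3, Dnajb5, Dnajb7, Dnajb8, Dnajb13, Dnajc5b, Dnajc6, Dnajc12, Dnajc22, Dnajc28 and the small heat shock genes Hspb2, Hspb3, Hspb7 and Hspb9. Of these 18 stayed under 1 in every library, and the others reached 1.41 (Hspb2, in dICM replicate 1), 1.06 (Dnajb2) and 1.04 (Dnajc28) at most.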

How the data were processed

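RNA sequencing values of 8 libraries were analysed. The deposited table gives a signal per gene and library, named adjusted TPM per the file headers, and the sources used here do not describe the adjustment. Per the submitters' processing notes, Bowtie 0.12.5, DESeq and the mm9 build were used, with no role stated. The read depth is unknown, so no counting error can be given.

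From there, log2(value + 1) of the 17698 genes that reached 1 in 2 or more libraries was fitted in limma 3.58.1 (R 4.3.3; moderated test with a trend, two-sided, all 8 libraries in 1 fit, 5 residual and 3.97 prior degrees of freedom), with Benjamini-Hochberg adjustment over these genes. The script was tested on simulated data. The labels name biological replicates but not separate litters, so p-values measure the spread between these libraries. Full statistics were given for a fixed set of main chaperones and, per comparison, for up to 6 higher and 6 lower genes with the largest change among called genes with groups that did not overlap and a mean of 10 or more in 1 of them; other members were named by class. Members, lists and markers were chosen with earlier results of these data known. Alternatives were other pseudocounts, filters, scalings, variance models, a replicate block, each library left out and, added after the data were seen, genes summed with near-identical pseudogene rows (blastn 2.17.0 against 5981 pseudogene rows). Promoters came from RefSeq (GRCm38.p6), not the build of the files.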

Additional observations from a re-analysis of the deposited data

How the results depend on the processing

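No call of a chaperone gene changed direction under the alternatives run. In dICM against ICM 3 of 11 calls held in each of them (Dnaja1, Hspb1 and Hsph1), in Epi against ICM 9 of 21 and in dICM against Epi 12 of 25. With 1 epiblast library left out, the lone one is assumed to vary like the other groups. Leaving out each library in turn gave, for dICM against ICM, 794 to 1116 genes higher (1331 with all libraries) and 607 to 1113 lower (1029), with 2 to 3 chaperone genes higher (3) and 3 to 11 lower (8). For Epi against ICM it gave 760 to 2870 genes higher (2963) and 1028 to 2400 lower (2361), with 7 to 12 chaperone genes higher (12) and 4 to 11 lower (9). For dICM against Epi it gave 1418 to 2961 genes higher (2830) and 1121 to 3390 lower (3283), with 5 to 13 chaperone genes higher (10) and 9 to 16 lower (15).

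Without a filter on low values, dICM against ICM gave 675 genes higher and 603 lower with 5 chaperone genes lower, Epi against ICM 7 chaperone genes higher, and dICM against Epi 6 higher. Here more genes were tested. Calls lost in that setting include Hspa8 (adjusted p = 0.21), Dnajb4 (0.15), Hsf2 (0.15) and Dnajc17 (0.10) in dICM against ICM, Hspa8 (0.23), Dnaja1 (0.14), Hsp90ab1 (0.094), Hspa4l (0.078) and Hspd1 (0.051) in Epi against ICM, and Dnaja1 (0.12), Dnajb4 (0.083), Cct3 (0.069), Hspb8 (0.056) and Hspa4l (0.050) in dICM against Epi. With only the compared groups fitted, Hsf2 (0.084) and Dnajc17 (0.053) were lost in dICM against ICM and Hspa8 (0.073) and Dnaja1 (0.070) in Epi against ICM. With all libraries rescaled to the same total, dICM against ICM gave 864 genes higher and 16 chaperone genes lower and Epi against ICM 1544 genes higher. The same scaling ended the calls of Dnajc18 (adjusted p = 0.074) in dICM against ICM, of Hsp90ab1 (0.071), Hspd1 (0.061), Bag2 (0.070) and Bag4 (0.096) in Epi against ICM, and of Cct3 (0.053), Cct5 (0.085), Dnajc1 (0.063), Dnajc10 (0.090), Dnajc11 (0.051) and Dnajc14 (0.068) in dICM against Epi. Quantile normalization ended those of Hsp90ab1 (0.062) and Bag4 (0.077) in Epi against ICM and of Cct3 (0.076), Cct5 (0.098) and Dnajc11 (0.066) in dICM against Epi. Rescaling to the same total moved the median of all genes by -0.20 and -0.21. Rescaling without the abundant genes moved it by -0.12 in Epi against ICM and 0.11 in dICM against Epi. Without Epi replicate 1 the share of higher genes among those called in Epi against ICM was 42.5%, against 55.7% with it. The cause of these shifts was not tested.

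Same-numbered ICM and dICM libraries correlated at 0.017, 0.103 and 0.131 in their deviations from the group means. ICM replicates 2 and 3 correlated best with the dICM library of the same number, and ICM replicate 1 with dICM replicate 2 (0.033). These values do not settle whether the numbers mark pairs. The labels do not say that a number marks a shared litter or day, so the main fit took no pairs. With the replicate number as a block, 5 chaperone genes were lower in Epi against ICM, and the calls of Hsf2 (adjusted p = 0.067) and Cct6a (0.055) in dICM against ICM were lost. In Epi against ICM the block also ended the calls of Hspa8 (0.053), Dnaja1 (0.074), Dnajc5g (0.068) and Dnajc13 (0.087), and in dICM against Epi those of Dnaja1 (0.054), Cct5 (0.056), Dnajc14 (0.062) and Dnajc10 (0.065). With it Hspd1 (0.041) and Dnajb6 (0.047) passed as lower in dICM against ICM and Dnaja2 (0.047) in dICM against Epi.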
